A study of Bos taurus with 12 samples.

Results

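The matrix metalloproteinases (MMPs) and their tissue inhibitors (TIMPs) were followed through 10 genes of the bovine growth plate: MMP1, MMP2, MMP3, MMP9, MMP13, MMP14, MMP16, TIMP1, TIMP2 and TIMP3. Members were taken by gene symbol in the platform's annotation. The rule holds no measured value, but the members were chosen with earlier results of these data known. Every probe set (the group of probes on the array that reads one transcript) was kept on its own. This gave 20 probe sets of the 24016 that are not controls, and 10 of 9155 named genes. The series compared 2 zones of the growth plate, the cartilage that lengthens long bones, on 12 one-colour arrays with biotin-labelled copies of total RNA. The cells, labelled as growth plate chondrocytes, came from male dairy cattle under 10 months of age, and were taken from the distal metacarpus and freed from their matrix with Collagenase P for 4 hours. Density centrifugation then separated a light fraction, called hypertrophic zone (HZ, 6 arrays), from a dense one, called reserve zone (RZ, 6 arrays). The arrays form 6 numbered HZ and RZ pairs, described as independent, and the labels do not state whether a pair is 1 animal or a pool, so p-values describe the spread between these pairs only.

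MMPs are zinc-dependent enzymes that are made as inactive precursors and cut matrix proteins outside the cell. Collagenases cut the collagen triple helix, gelatinases take up the unwound chains, stromelysins cut proteoglycans and activate other MMPs, and membrane-type MMPs act at the cell surface. TIMPs block the active site. In the growth plate MMP13 is a known product of hypertrophic chondrocytes, and MMP9 is known from the osteoclasts and other cells that enter the cartilage from the marrow side.

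The deposited values are ratios, from which each array's signal was recovered; its unit is assumed. Brightness ranks and summed marker signals describe the arrays only and set no gene's level against another's. Differences and folds are on the scale of log2(signal + 16), which understates the change of dim probe sets.

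The zone labels were set beside marker genes other than the members. These lists were chosen with earlier results of these data known, so they are no independent check of the labels. Of 8 measured hypertrophic markers 5 were higher in HZ and 0 lower, and of 5 measured reserve zone markers 4 were lower and 0 higher (limma with the pair as a block, Benjamini-Hochberg adjusted p under 0.05 over all probe sets). At an unadjusted p under 0.05 the hypertrophic list still had 0 lower and the reserve zone list 0 higher. The hypertrophic markers that did not pass were COL10A1, IBSP and SPP1. Their log2 differences (HZ minus RZ) were 0.11, 0.14 and 0.31 (limma adjusted p = 0.755, 0.715 and 0.215). COL10A1 had mean signals of 21620 in HZ and 20147 in RZ. The reserve zone marker that did not pass was GDF5 (0.19). Of 9 cartilage markers, such as COL2A1 and ACAN, only MATN1 passed, as lower, and their summed signal ran from 103282 to 172061 in HZ and from 94112 to 185711 in RZ. Some markers of other cells also passed: 3 of 4 osteoclast and 5 of 8 macrophage markers were higher in HZ. Lower were 1 of 10 granulocyte, 2 of 9 lymphocyte, 1 of 8 endothelial and 1 of 8 fibroblast markers. Over all named genes, by their brightest probe set, 4.17% rose and 3.56% fell. A list with 1 passing marker therefore shows no zone difference of that cell type. At an unadjusted p under 0.05 the macrophage list had 6 higher and 1 lower, CD14 (-0.81). The endothelial list had 1 higher and 2 lower, with a median of -0.070. Of 5 osteoblast markers DMP1 alone passed, as higher (1.34), while the list median was -0.99 and the sum was lower in HZ in 6 of 6 pairs (1550 to 5045 against 1617 to 18299). The lymphocyte sum was 490 to 1314 in HZ and 482 to 1044 in RZ, lower in HZ in both early pairs (1 and 2) and higher in the other 4, where GNLY, which did not pass (1.72, adjusted p = 0.0891), stood at 2.79. Of 5 erythroid markers 0 passed by limma, with 0 at an unadjusted p under 0.05. On every array, 5 of 8 endothelial, 4 of 5 erythroid, 3 of 9 lymphocyte and 1 of 8 fibroblast markers lay below the median signal. Whether these markers exceed background is not known. The summed osteoclast signal was 10631 to 16880 in HZ and 3967 to 7308 in RZ, the macrophage sum 1401 to 3199 and 1021 to 2373, the endothelial sum 221 to 582 and 544 to 806, and the fibroblast sum 13734 to 18724 and 15866 to 31966. The macrophage sum was lower in HZ in pair 6 alone (1448 against 1849). The endothelial and fibroblast sums were higher in HZ in pair 3 alone. The part of these cells in the results was not tested. The log2 ratio of 3′ to 5′ actin probes, a sign of RNA integrity, averaged 3.03 ± 0.685 over the 6 HZ arrays against 2.34 ± 0.453 (SD) over the 6 RZ arrays, and 5 of 6 pairs had the higher ratio in HZ (exact two-sided sign-flip test, p = 0.0625). The same ratio averaged 0.519 in HZ and 0.103 in RZ for gapd (exact p = 0.125), and for ef1a it went the other way, at -2.50 and -2.26, higher in HZ in 1 of 6 pairs (exact p = 0.406). The part of RNA integrity in the results was not tested either. Pairs 1 and 2 differed from pairs 3 to 6 in the step between deposited values (0.0237 to 0.0318 against 0.00884 to 0.0110), and differences are therefore also given within these batches, called early (pairs 1 and 2) and late (pairs 3 to 6) by number alone; no label names a batch.

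Across the family, the enzyme MMP13 and the inhibitor TIMP3 were higher in HZ, and MMP2, 2 of 3 TIMP2 probe sets and 1 of 3 MMP16 probe sets were lower. That is 3 probe sets that rose, 4 that fell and 13 that did not pass. Over all probe sets 3.26% rose and 2.96% fell, 6.22% in all. Counted by the brightest probe set of each gene, MMP13 and TIMP3 rose and MMP2 fell, where 4.17% and 3.56% of all named genes did so. The median log2 difference (HZ minus RZ) was 0.092 over the 20 probe sets and -0.0095 over all. Probe sets of 1 gene share a gene symbol and are not separate observations. Sets 2 and 3 of MMP3, MMP14 and MMP16 share the first part of their identifiers and differ in the suffix, S1 in 1 set and A1 in the other. What this suffix means for the strand, and which stretch of a transcript each set reads, is not given in the sources used here. Of the 13 members' probe sets brighter than the median probe set 6 passed, and of the 7 dimmer ones 1 did. The share of all probe sets that passed in each brightness group was not counted, so this split shows no trait of the family.

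**Figure D1:**
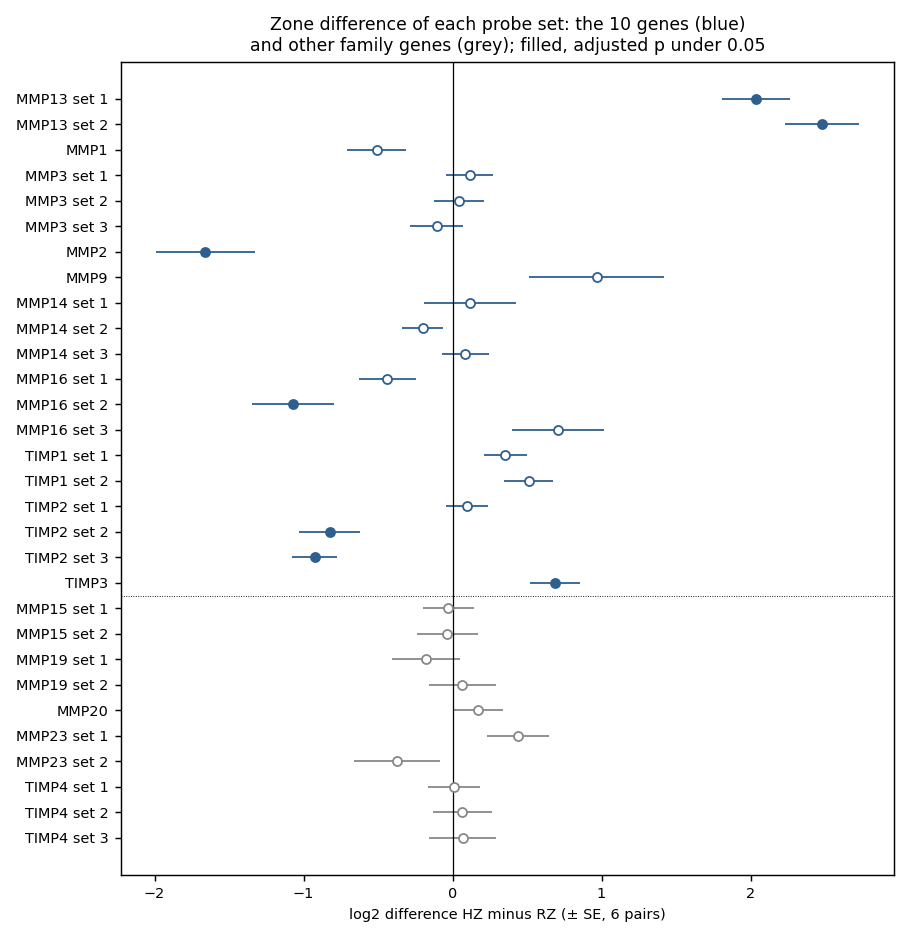
The log2 difference HZ minus RZ of each probe set with its standard error over 6 pairs, on the scale of log2(signal + 16), with the 10 member genes in blue and 5 other family genes in grey; filled points have an adjusted p under 0.05. Both MMP13 sets lie above 2, MMP2 lies at -1.66, and the 3 TIMP2 sets do not lie together.

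The collagenase MMP13 gave the largest difference among the members. It was read by 2 probe sets, numbered here and for every gene from the brightest by mean log2 signal. Signals of set 1 (Bt.26268.1.A1_at) ran from 3530 to 5771 in HZ with a median of 4756, and from 784 to 1818 in RZ with a median of 1063. In set 2 (Bt.39.1.S1_at) they ran from 2711 to 8797 in HZ (median 4614) and from 624 to 1062 in RZ (median 767). The lowest HZ array lay above the highest RZ array in both sets, and these are the only members without overlap between the zones; 2.89% of all probe sets had none. Set 1 was 4.10-fold higher in HZ, a log2 difference of 2.04 ± 0.23 (SE, limma adjusted p = 0.00205), and set 2 was 5.58-fold higher, at 2.48 ± 0.25 (adjusted p = 0.00127). In bulk samples such as these, fewer cells of a type and less RNA per cell cannot be told apart, here or in any later result.

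MMP13 was higher in HZ in every pair by both sets. Pair 2 had the smallest difference, at 1.14 in set 1 and 1.39 in set 2, and the largest were 2.80 in pair 3 for set 1 and 3.59 in pair 6 for set 2. The HZ-6 array, with 8797, was the highest of set 2, while set 1 gave 4880 there, close to its HZ median. Over the 12 arrays the sets correlated at r = 0.947, and set 2 exceeded set 1 in 5 of 6 pairs by a mean of 0.44 (exact sign-flip p = 0.0938 and 0.188 after adjustment over the 14 pairs of probe sets of 1 gene). The early batch gave 1.51 and 1.96 for the 2 sets, and the late batch 2.30 and 2.74. Leaving out any 1 pair gave 1.88 to 2.22 for set 1 and 2.26 to 2.70 for set 2, past the threshold each time.

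MMP1, the other collagenase measured, differed in the opposite direction but did not pass. Its single probe set (Bt.72.1.S1_at) read 79.9 to 291 in HZ (median 108) and 89.0 to 394 in RZ (median 199.9). The arrays of pair 1 were the brightest of each zone, and the zones overlapped widely. The log2 difference was -0.51 ± 0.20 (SE, adjusted p = 0.166, 95% interval -0.95 to -0.065), lower in HZ in 5 of 6 pairs and 0.14 higher in pair 6. In the RefSeq gene table the MMP genes on the chromosome of MMP13 are, in order, MMP13, MMP12, MMP3, MMP1, MMP8, MMP27, MMP20 and MMP7. A gene outside the family directly follows MMP1, so not all of them are direct neighbours. Of these 8 genes, 4 have a named probe set on the array: MMP13 rose, while MMP3, MMP1 and MMP20 did not pass.

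MMP3, the stromelysin that cuts proteoglycans and activates procollagenases, showed no difference beyond the spread at any of 3 probe sets. Set 1 (Bt.18504.1.S1_at) read 11052 to 19663 in HZ (median 17093) and 11754 to 18800 in RZ (median 14031), and set 2 (Bt.18504.2.S1_a_at) read 7129 to 13033 (median 11585) and 7452 to 13811 (median 10475). The log2 differences were 0.12 ± 0.16 and 0.045 ± 0.17 (SE, adjusted p = 0.735 and 0.917), with 95% intervals of -0.24 to 0.47 and -0.33 to 0.42. Both sets lie among the 240 brightest of all probe sets, the top 1%, of which 10 passed (4.17%). Both TIMP1 sets and the TIMP3 set lie there too, and of these members only TIMP3 passed.

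The third MMP3 probe set (Bt.18504.2.A1_at) separated the batches instead of the zones. Its 4 early arrays read 372 to 507 and its 8 late arrays 1649 to 3979, with no overlap. Its zone difference was -0.11 ± 0.18 (SE, adjusted p = 0.790), -0.038 early and -0.14 late. It correlated at 0.593 and 0.414 with sets 1 and 2 over the 12 arrays, against 0.878 between those.

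Among the gelatinases, MMP2 was lower in HZ. MMP2 degrades unwound collagen and basement membrane collagen. Its probe set (Bt.5313.1.S1_at) read 139 to 1508 in HZ (median 589) and 1064 to 2646 in RZ (median 1771). Only HZ-3, at 1508, reached into the RZ range, and HZ-1, at 139, was the lowest of all 12 arrays. The level was 3.16-fold lower in HZ (log2 -1.66 ± 0.33, SE, adjusted p = 0.0205), lower in 6 of 6 pairs, from -0.24 in pair 3 to -3.35 in pair 1. The early batch stood at -2.23 and the late batch at -1.37 (adjusted p = 0.324 and 0.0818). No probe set of the whole array passed in the early batch alone. When pair 4, 5 or 6 was dropped it no longer passed (log2 -1.68, -1.69 and -1.55, adjusted p = 0.0591, 0.0591 and 0.0584), and over all fits with 1 pair left out it ran from -1.94 to -1.32. Of the 8 fibroblast markers, a cell type that makes MMP2, PDGFRA fell (-1.01 ± 0.21, SE) and the others, COL1A2 at -1.12 and COL3A1 at -0.14 among them, did not pass.

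**Figure D2:**
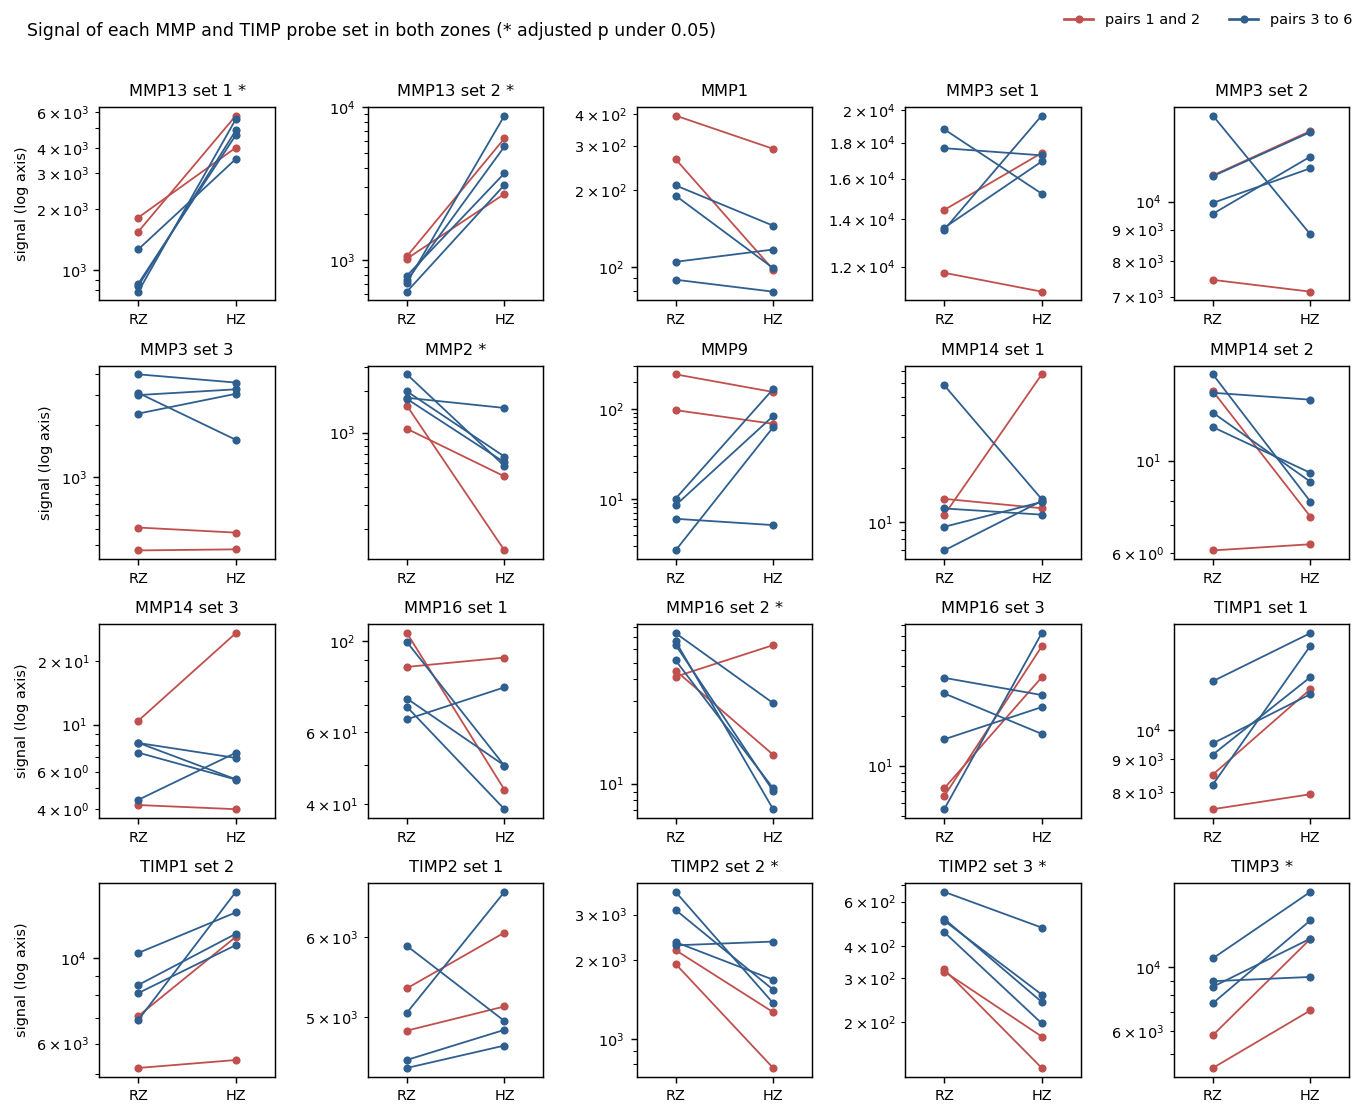
Signal of each probe set in RZ and HZ, 1 line per pair (red, pairs 1 and 2; blue, pairs 3 to 6), on a log axis whose range differs between panels; a star marks an adjusted p under 0.05. All lines of both MMP13 sets climb and all MMP2 lines drop, and the 4 arrays of pairs 1 and 2 lie apart in MMP3 set 3.

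MMP9, the second gelatinase, did not pass, and its zone difference changed sign between pairs. Its probe set (Bt.4714.1.S1_at) read, in pair order, 68.1, 154, 165, 62.3, 83.0 and 5.09 in the HZ fractions, and 96.5, 241, 10.0, 2.66, 8.46 and 5.98 in their RZ partners. In pairs 3, 4 and 5 HZ was higher and RZ near the bottom of the scale. In pairs 1 and 2 neither zone was near the bottom, and in pair 6 both were. The probe set was dim, and only HZ-2, HZ-3 and RZ-2 exceeded the array median of 96.7. Whether its values exceed background is not known. The mean log2 difference was 0.97 ± 0.45 (SE, adjusted p = 0.248), higher in HZ in 3 of 6 pairs, with -0.51 early and 1.71 late. It was 0.60 without pair 3, and 1.64 with an added constant of 1, 0.46 with 64 and 1.75 with log2 of the deposited ratio, and passed in none of these. The difference between these batches did not pass over all probe sets (2.22 log2, unadjusted p = 0.00965, adjusted p = 0.779), a test that 0.00833% of all probe sets passed.

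Other cells known for MMP9 gave the following values on the same arrays. The 10 granulocyte markers summed to 11812 and 7445 on RZ-1 and RZ-2, to 2710 and 1847 on HZ-1 and HZ-2, and to 554 to 1431 on the 8 arrays of pairs 3 to 6. The 4 osteoclast markers, ACP5, CTSK, ATP6V0D2 and ITGB3, summed higher in HZ in all pairs, also in pair 6 (11711 against 3967), where MMP9 was low in both zones. ACP5, the phosphatase TRAP of osteoclasts, and CTSK, their collagen-cutting cathepsin, rose by 1.21 ± 0.29 and 1.46 ± 0.21 (SE, adjusted p = 0.0390 and 0.00625). ITGB3 rose by 1.46, and ATP6V0D2 did not pass (0.44, limma adjusted p = 0.271, higher in HZ in 4 of 6 pairs). The mean HZ signals were 6683 for CTSK, 5652 for ITGB3, 1734 for ACP5 and 68.9 for ATP6V0D2, so the first 2 dominate the sum. Of 9 listed osteoclast markers only these 4 were measured. The part of these cells in the MMP9 values was not tested.

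**Figure D3:**
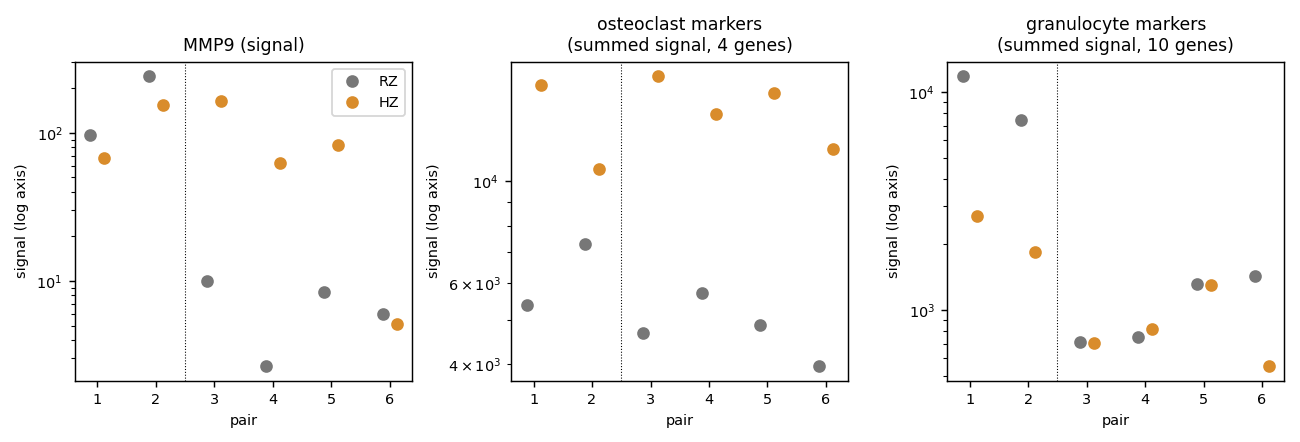
MMP9 signal and the summed signal of osteoclast and granulocyte markers (without MMP9) by pair on log axes, grey for RZ and orange for HZ; the dotted line parts pairs 1 and 2 from 3 to 6. Granulocyte markers were highest on RZ-1 and RZ-2, and osteoclast markers were higher in HZ in all 6 pairs.

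The membrane-type enzymes were read by dim probe sets. MMP14, which activates proMMP2 at the cell surface, did not exceed 67.4 on any array at any of its 3 sets (Bt.7046.1.S1_at, Bt.7046.2.A1_at and Bt.7046.2.S1_a_at), against an array median of 96.7. The zone differences were 0.12 ± 0.31, -0.20 ± 0.14 and 0.087 ± 0.16 (SE, adjusted p = 0.878, 0.454 and 0.812). HZ-1 was bright at sets 1 and 3, with 67.4 and 27.1, and RZ-4 at set 1, with 58.5. Detection calls were not used here, so whether these values exceed background is not known. The gene RBM23, which overlaps MMP14 in the RefSeq table, had probe sets of its own at -0.19 and -0.54 that did not pass.

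MMP16, another membrane-type enzyme, gave 3 probe sets that did not go together. Set 2 (Bt.13089.1.S1_at) read 7.12 to 63.1 in HZ (median 12.1) and 41.5 to 74.1 in RZ (median 57.4). It was lower in HZ in 5 of 6 pairs, with HZ-2 the exception, and fell by 1.07 ± 0.27 on the log2 scale (SE, adjusted p = 0.0489). Set 1 (Bt.27248.1.A1_at) stood at -0.44 ± 0.19 (adjusted p = 0.217) and set 3 (Bt.13089.1.A1_at), which read 15.5 to 62.8 in HZ and 5.47 to 33.8 in RZ, at 0.71 ± 0.31 (adjusted p = 0.217). Sets 2 and 3 differed in every pair, by a mean of -1.78 (exact sign-flip p = 0.0313, the smallest 6 pairs allow, and 0.146 after adjustment). After dropping pair 2 the fall of set 2 was larger (-1.38, adjusted p = 0.00803), and after dropping any other pair it did not pass (adjusted p = 0.105 to 0.131). The early batch gave -0.27 and the late batch -1.48.

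Among the inhibitors TIMP3 rose and 2 of 3 TIMP2 sets fell, while by the brightest set of each gene none fell (TIMP1 0.35, TIMP2 0.098, TIMP3 0.68 and TIMP4 0.010), and no difference between inhibitors was tested. TIMP3, which binds to the matrix and also blocks ADAM and ADAMTS proteases, was higher in HZ. Its probe set (Bt.5136.1.S1_at) read 7087 to 18346 in HZ (median 12590.3) and 4466 to 10761 in RZ (median 8037). HZ was above RZ in 6 of 6 pairs, by only 0.049 in pair 4, while the zones overlapped across pairs. The log2 difference was 0.68 ± 0.17 (SE, adjusted p = 0.0424), with 0.89 early and 0.58 late. Leaving out 1 pair gave 0.60 to 0.81, past the threshold only without pair 4 (adjusted p = 0.0419, against 0.0779 to 0.129 without any other).

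TIMP1, a secreted inhibitor of most MMPs, was higher in HZ in 6 of 6 pairs at both of its sets without passing. Set 1 (Bt.632.1.S1_at) read 7946 to 14121 in HZ (median 11815) and 7534 to 11895 in RZ (median 8840), and set 2 (Bt.632.1.S1_s_at) 5437 to 14875 and 5184 to 10320.1. The differences were 0.35 ± 0.14 and 0.51 ± 0.16 (SE, adjusted p = 0.180 and 0.101), smallest in pair 2 at 0.077 and 0.068. Set 2 passed with a constant of 64 instead of 16 (adjusted p = 0.0461), with dim probe sets left out (0.0333) and with the trend and robust options (0.0438), at 0.51 each time. It did not pass without the pair block (0.300), with a constant of 1 (0.167), with the deposited ratio (0.171), after quantile normalization (0.0809), with array weights (0.0788) or with any 1 pair left out (adjusted p = 0.0970 to 0.257). The same sign in all 6 pairs was seen in 7 of the 20 members' probe sets and in 14.0% of all. SYN1, whose gene overlaps TIMP1, gave 0.53 ± 0.19 and did not pass (adjusted p = 0.146).

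TIMP2, which inhibits MMP2 and also brings proMMP2 to MMP14, fell at 2 probe sets and not at the brightest. Set 2 (Bt.14176.1.S1_at) read 772 to 2362 in HZ (median 1457) and 1939 to 3667 in RZ (median 2318), a fall of 0.82 ± 0.20 on the log2 scale (SE, adjusted p = 0.0450). Set 3 (Bt.14176.2.S1_at) read 132 to 474 in HZ (median 219.7) and 318 to 656 in RZ (median 479), a fall of 0.93 ± 0.15 (adjusted p = 0.00997). Set 1 (Bt.435.1.S1_at) read 4682 to 6656 in HZ (median 5036) and 4447 to 5881 in RZ (median 4946), with a difference of 0.098 ± 0.14 (adjusted p = 0.755, 95% interval -0.22 to 0.42).

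The TIMP2 sets thus differed among themselves. Set 3 was lower in HZ in all 6 pairs, set 2 in 5, with 0.048 in pair 3, and set 1 was higher in 5. Set 1 exceeded set 2 by 0.92 and set 3 by 1.02 in the difference between zones, in 6 of 6 pairs (exact sign-flip p = 0.0313 each, 0.146 after adjustment over 14 pairs of sets). Sets 2 and 3 correlated at 0.777 over the 12 arrays, and set 1 with them at -0.160 and -0.203. Set 1 was designed on a RefSeq mRNA record and sets 2 and 3 on other GenBank records; which stretch of the transcript each reads is not given in the sources used here. With 1 pair left out, set 3 passed in 6 of 6 fits (-1.02 to -0.87), while set 2 passed only without pair 3 (-0.998) and ran down to -0.71 without pair 6 (adjusted p = 0.0856 to 0.133 in the 5 others).

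**Figure D4:**
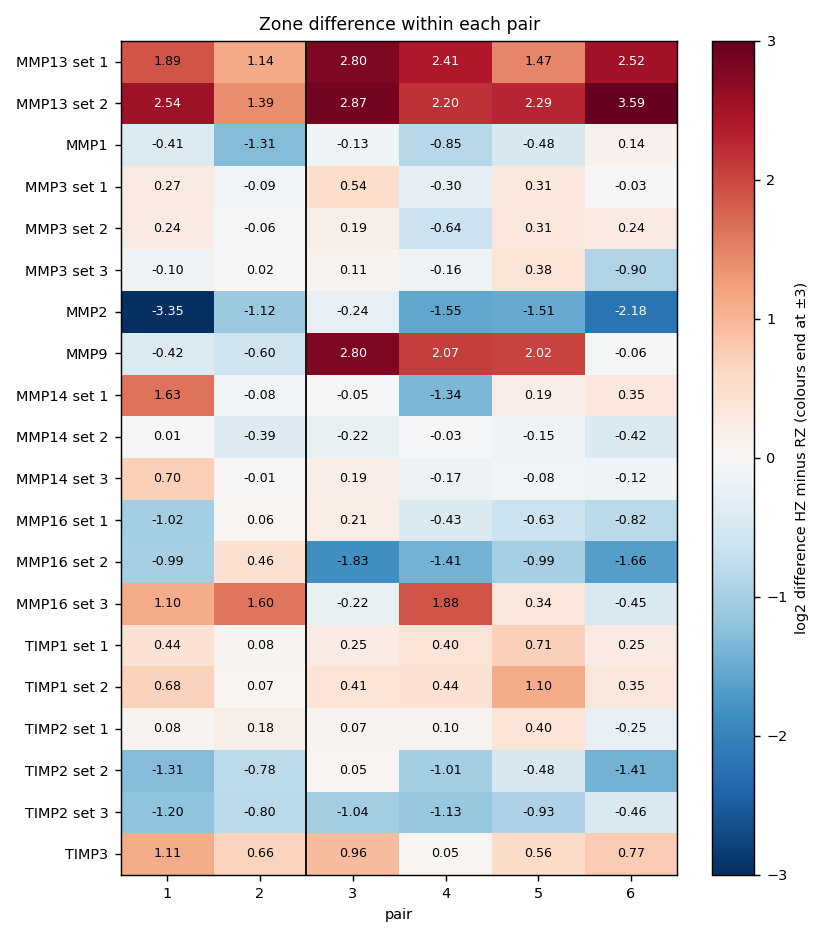
The log2 difference HZ minus RZ within each of the 6 pairs for the 20 probe sets (red, higher in HZ; blue, lower); the black line parts pairs 1 and 2 from 3 to 6. MMP13 is red and MMP2 blue throughout, MMP9 is red in pairs 3 to 5 only, and TIMP2 set 1 stands apart from sets 2 and 3.

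Since MMP2, TIMP2 and MMP14 form a complex at the cell surface, the differences within pairs of MMP2 were set against those of the 6 TIMP2 and MMP14 probe sets. TIMP2 set 2 followed MMP2 over the 6 pairs with r = 0.846 (exact permutation p = 0.0403, adjusted p = 0.242 over 6 relations) and rho = 0.886 (exact p = 0.0333, adjusted p = 0.200). Pair 3 had the smallest drop of MMP2 (-0.24) and a slightly higher TIMP2 set 2 in HZ (0.048). Without pairs 1 and 3, the farthest from the median of MMP2, r was 0.748 over 4 pairs. The other 5 relations had r between -0.635 and 0.247 (exact permutation p of 0.133 and above), and none of the 6 passed after adjustment. TIMP2 sets 1 and 3 had r = 0.247 and 0.066 with MMP2, and 0.763 and -0.605 without pairs 1 and 3.

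**Figure D5:**
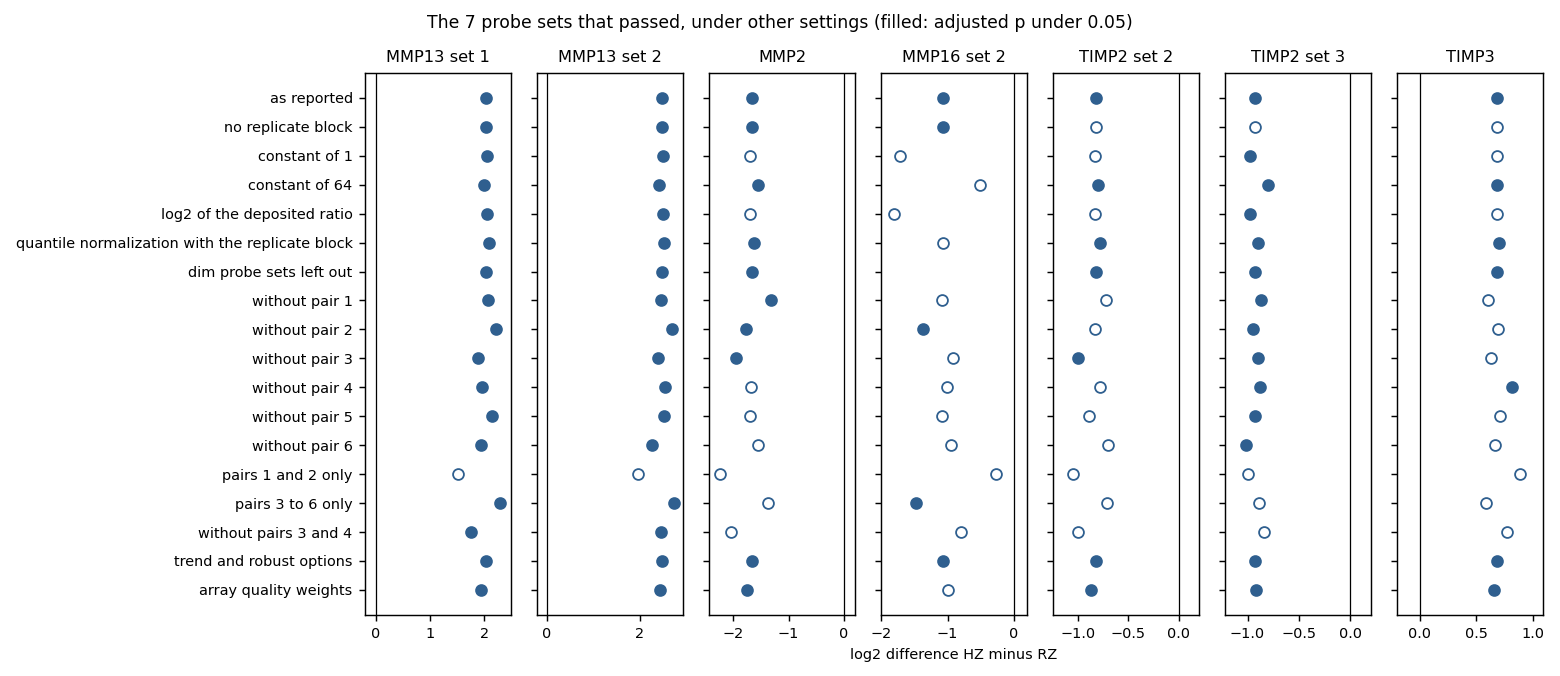
The log2 difference HZ minus RZ of the 7 probe sets that passed, under each setting tried; filled points have an adjusted p under 0.05. Both MMP13 sets pass in every setting except pairs 1 and 2 alone, where no probe set of the whole array passed. MMP2, TIMP2, TIMP3 and MMP16 set 2 lose the threshold in several, and no point crosses 0.

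The array also names 10 probe sets of 5 other genes of the family, MMP15, MMP19, MMP20, MMP23 and TIMP4. By limma 0 of these passed, and 0 had an unadjusted p under 0.05. Their differences ran from -0.37 ± 0.29 at MMP23 set 2 to 0.44 ± 0.21 at MMP23 set 1, and the 3 sets of TIMP4 lay between 0.010 and 0.068.

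Genes that act with MMPs were read from 4 lists, each gene by its brightest probe set; over all named genes read so, 4.17% rose and 3.56% fell. Of the 79 genes in the lists 8 rose and 8 fell. Among 21 measured other matrix proteases and inhibitors 3 rose and 4 fell, with a list median of -0.033 beside -0.0095 over all probe sets. CTSK, cathepsin K, PRSS23 and CTSS, cathepsin S, rose by 1.46, 1.38 and 1.36. The aggrecanase ADAMTS4 fell by 1.68 ± 0.18 (SE, adjusted p = 0.00156), and the serine protease HTRA1 (-1.66), the fibroblast surface protease FAP (-1.20) and the collagen chaperone SERPINH1 (-1.11) fell too. The second aggrecanase, ADAMTS5, was dim, with mean signals of 9.72 in HZ and 11.8 in RZ.

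Of 13 measured genes of MMP activation and clearance, ITGB3, an integrin subunit, and CD44, the hyaluronan receptor that can hold MMPs at the surface, rose by 1.46 ± 0.19 and 0.79 ± 0.16, and SERPINE2, an inhibitor of plasmin activators, fell by 0.83 ± 0.19 (SE, limma, adjusted p = 0.0342), with a list median of -0.17. The proprotein convertase FURIN (0.17), the urokinase PLAU (0.39) and its receptor PLAUR (-0.36) did not pass. A2M, which traps proteases, stood at 0.57 ± 0.15 (adjusted p = 0.0533).

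Of 24 measured regulators of MMP transcription, 3 rose and 2 fell, with a median of 0.021. EPAS1, the hypoxia factor HIF-2 alpha, rose by 1.68 ± 0.17, ETS2 by 1.22 ± 0.17 and MEF2C by 1.14 ± 0.20 (SE). MEF2C also stands in the hypertrophic marker list, as CTSK and ITGB3 do in the osteoclast list. IL6, a cytokine, fell by 1.39 ± 0.32 and NFKB1 by 0.75 ± 0.16. The AP-1 members FOS, FOSL1, FOSL2, FOSB, JUN, JUNB and JUND lay between -0.13 and 0.55, and none passed. Of 21 measured MMP substrates 1 fell, the basement membrane protein NID1 (-1.93 ± 0.34), and 0 rose (limma, with 1 rising and 5 falling at an unadjusted p under 0.05; median -0.042). COL2A1, ACAN and COL10A1 stood at 0.15, 0.13 and 0.11.

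The genes most like each passing probe set were sought among 7815 probe sets with 1 gene and above-median brightness, by Pearson correlation of log2 signal over the 12 arrays, which share zone and pair. For MMP13 set 1 these were SSU72, MXI1 and CYSTM1 (r = 0.973, 0.966 and 0.960), and for set 2 MTMR10, RFTN2 and NT5DC1 (0.956, 0.956 and 0.952). MMP2 was nearest to ITGA10, a collagen-binding integrin subunit of chondrocytes (0.981), GJC1, a connexin (0.973), and NID2, a basement membrane protein (0.971). TIMP2 set 2 was also nearest to ITGA10 (0.971) and NID2 (0.970), then ISLR (0.964), and set 3 to PPME1, SERPINH1 and GLB1L (0.971, 0.968 and 0.953). For TIMP3 they were DCAF17, FBXO33 and TMEM127 (0.958, 0.917 and 0.916), and for MMP16 set 2 C1QTNF5, ERCC1 and MID1IP1 (0.945, 0.909 and 0.872).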

How the data were processed

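The authors deposited linear ratios for 24128 probe sets (112 controls) on each array. How they scanned, summarised and normalized the arrays is not stated in any label. For 21901 probe sets the median over the 12 arrays is 1, and the other 2227 (9.23%) were divided by 1 fixed value. Column medians were 0.997, 0.934, 1.04, 0.971, 0.970 and 0.988 for HZ-1 to HZ-6 and 0.986, 0.988, 0.978, 1.02, 0.969 and 1.01 for RZ-1 to RZ-6. Each array's ratios are whole multiples of a step, which gave the divisor and so a signal for all probe sets (largest distance from a whole step 0.0616; 100% of 4000 simulated probe sets were solved). The unit of signal assumes that 1 step is 0.1 units, which no source states. No detection calls were used.

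Tests used log2(signal + 16) in limma 3.58.1 (R 4.3.3) with the pair as a fixed block, adjusted by Benjamini-Hochberg over 24016 probe sets, threshold 0.05, in place of the intensities first planned. In simulated data 65% of 100 probe sets changed by log2 1 and 97% of 100 changed by log2 2 were recovered, with 9 false calls among 24016. Same-numbered arrays deviated together (correlations 0.124 to 0.447 over 6 pairs; 5 of 6 numbers were closest to their own partner), and the series text speaks of pairs. Symbols came from the platform annotation, matched by Entrez identifier to RefSeq names of ARS-UCD2.0, for 13263 of 13292 probe sets with 1 gene. Named were all family probe sets, up to 4 passing genes with the smallest adjusted p of each related list, and the 3 nearest genes by correlation. Other list genes, overlapping genes and those beyond 4 were named after their values were seen. Members and lists were chosen with earlier results of these data known. Precision is limited by the number of arrays.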

Additional observations from a re-analysis of the deposited data

Results flagged for a closer look

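In 5 of 40 groups of 6 arrays (20 probe sets in 2 zones), 1 array lay far from the others on the log2 scale. Chance gives about 1 in 20 groups only where groups are independent and values normally distributed. Probe sets of 1 gene are not independent, and the share over all probe sets was not counted. The count of 5 therefore shows no excess among the members. The measure is the gap to the nearest array as a share of the group's range, set against Dixon's critical value. At MMP14 set 1, HZ-1 read 67.4 against 11.004 to 13.4 on the other HZ arrays (gap 0.924), and RZ-4 read 58.5 against 6.93 to 13.5 in RZ (0.786). At MMP14 set 3, HZ-1 read 27.1 against 3.98 to 7.36 (0.797), and at MMP14 set 2, RZ-1 read 6.09 against 12.04 to 16.1 (0.637). At TIMP1 set 2, HZ-2 read 5437 against 10819 to 14875 (0.683). Of these, 4 are at MMP14 probe sets, all dim.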

How the results depend on the processing

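The count of 3 members' probe sets that rose became 2 to 3 with 1 pair left out, 2 without the replicate block, with a constant of 1 and with the deposited ratio, 4 with a constant of 64, with dim probe sets left out and with the trend and robust options, and 0 in pairs 1 and 2 alone (limma; 4 up and 4 down at an unadjusted p under 0.05). The count of 4 that fell became 2 without the replicate block, 1 with a constant of 1, 1 with log2 of the deposited ratio, 1 to 3 with 1 pair left out, 0 in pairs 1 and 2, 1 in pairs 3 to 6 and 0 without pairs 3 and 4 (4 at an unadjusted p under 0.05). Of the 79 genes of the 4 related lists, 8 fell, against 5 without the replicate block, 3 with a constant of 1, 11 with 64 and 9 by any probe set, and 8 rose, against 6, 6, 11 and 10. Over all probe sets 782 rose and 712 fell as reported. With a constant of 1 these counts were 368 and 215, and with 64 they were 1017 and 1120. Without pairs 3 and 4 they were 91 and 48. In pairs 1 and 2 alone 0 rose and 0 fell, so the members' 0 there is not particular to them. No member that passed changed sign in any setting. Among those that did not pass, MMP3 set 1 turned to -0.041 after quantile normalization, MMP9 to -0.51 in pairs 1 and 2, and MMP14 sets 1 and 3 to -0.21 and -0.043 in pairs 3 to 6. With 1 pair left out, MMP14 set 1 ran from -0.19 to 0.41, MMP14 set 3 from -0.037 to 0.14, MMP3 set 2 from -0.0082 to 0.18 and MMP3 set 3 from -0.21 to 0.052. The cause was not tested. MMP16 set 2, a dim set, stood at -1.72 with a constant of 1, -0.52 with 64 and -1.81 with the deposited ratio, passing in none of these. TIMP3 did not pass with a constant of 1 or the deposited ratio (adjusted p = 0.0967 and 0.102), nor did MMP2 (0.0710 and 0.0786) or TIMP2 set 2 (0.106 and 0.112). Without the block TIMP3 and TIMP2 sets 2 and 3 did not pass (adjusted p = 0.179, 0.0856 and 0.0768). The number of probe sets whose zone effect differed between batches stayed at 0 of 20 with constants of 1 and 64 (2 at an unadjusted p under 0.05 with 16).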
